A study of Mus musculus with 12 samples.

Results

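Tnf, Lta and Ltb are 3 genes that lie side by side in the major histocompatibility complex on mouse chromosome 17 and encode the cytokines tumour necrosis factor, lymphotoxin alpha and lymphotoxin beta. They were taken by name from the deposited expression table, where each has 1 row among 21573 genes, and all 3 passed the minimum level that 11641 genes reached. The table covers plasmacytoid dendritic cells from the bone marrow of BALB/c mice aged 56 to 63 days. These are sensor cells of the immune system that detect unmethylated CpG DNA through the receptor TLR9. Cells received 1 class of CpG oligodeoxynucleotide (short synthetic DNA with CpG motifs), which was CpG-A, CpG-B or else CpG-C, each at 0.5 µM during 24 h of culture, or none (control), and 3 libraries were sequenced from each of the 4 groups. All groups share strain, tissue and sorted cell type. The labels state no sort gate, no sex and no origin of the replicates from separate animals, so p-values measure only the spread between these samples. CpG-A is known for a phosphodiester core with poly-G ends, CpG-B for a full phosphorothioate backbone, and CpG-C for a phosphorothioate backbone with a palindrome.

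Tumour necrosis factor is made as a membrane-bound trimer, is cut free by the protease ADAM17, and signals through 2 receptors, TNFR1 and TNFR2. Lymphotoxin alpha is secreted as a homotrimer that binds those same receptors, or it is held at the cell surface in a heterotrimer with lymphotoxin beta, which binds the lymphotoxin beta receptor and helps to organise lymphoid tissue. The family feeds into NF-kB, the transcription factor family that also acts downstream of TLR9, and dendritic cells, lymphocytes and natural killer cells are all known sources.

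On mm10 the table places Ltb at 35194507 to 35196305 on the plus strand of chromosome 17, Tnf at 35199367 to 35202007 on the minus strand, and Lta at 35203165 to 35205351, also on the minus strand. Ltb and Tnf are 3061 bases apart and Tnf and Lta 1157 bases apart, and the whole cluster spans 10845 bases. Ltb and Tnf therefore end towards each other, and Tnf and Lta read in the same direction. The 250 bases before each start, where NF-kB and other factors can bind, are shown because Tnf and Lta were called in every class and Ltb, next to them, in none. They are the C57BL/6J reference of RefSeq (GRCm38.p6), not BALB/c sequence, and capitals mark the NF-kB motif (GGG, any 5 bases, CC) on either strand and the TATA box TATAAA.
Ltb promoter, chr17:35194257-35194506, plus strand: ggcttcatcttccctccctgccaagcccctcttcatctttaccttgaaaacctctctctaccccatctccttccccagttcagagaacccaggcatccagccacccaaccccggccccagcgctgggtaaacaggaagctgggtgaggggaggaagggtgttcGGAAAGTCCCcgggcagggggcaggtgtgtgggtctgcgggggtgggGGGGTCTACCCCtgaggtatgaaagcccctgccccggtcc
Tnf promoter, chr17:35202008-35202257, minus strand: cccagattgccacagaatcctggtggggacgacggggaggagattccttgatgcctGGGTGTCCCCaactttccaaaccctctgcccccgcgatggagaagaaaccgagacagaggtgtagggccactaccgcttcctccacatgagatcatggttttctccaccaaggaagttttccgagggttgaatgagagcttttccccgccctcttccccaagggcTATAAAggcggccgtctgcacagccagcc
Lta promoter, chr17:35205352-35205601, minus strand: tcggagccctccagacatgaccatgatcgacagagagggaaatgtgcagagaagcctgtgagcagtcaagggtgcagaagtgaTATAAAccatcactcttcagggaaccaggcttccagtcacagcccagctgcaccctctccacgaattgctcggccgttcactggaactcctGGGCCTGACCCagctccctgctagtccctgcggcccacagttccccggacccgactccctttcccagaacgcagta

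The NF-kB motif occurred in all 3 windows, as it did in 45.8% of 32851 mouse promoter windows of the same length. In Ltb the matches lay at -87 to -78 and, as 4 overlapping matches on both strands, between -40 and -29 before the start. In Tnf a single place, -194 to -185, matched on both strands, and in Lta overlapping matches spanned -76 to -66. TATAAA, held by 12.4% of promoters, stood at -29 to -24 in Tnf and at -167 to -162 in Lta. Neither the AP-1 motif TGANTCA (6.75% of promoters) nor the interferon motif (GAAA, any 2 bases, GAAA; 2.98%) occurred in any of the 3 windows. These are matches of letters in a window and not binding sites.

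The tail of the Tnf message is also shown, since it is the textbook AU-rich element through which tristetraprolin (Zfp36) and its relatives shorten the life of an mRNA. Capitals mark the repeated ATTTA, which overlaps itself.
Tnf AU-rich element, chr17:35199679-35199708, minus strand: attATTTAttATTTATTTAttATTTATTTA
The 30 bases hold ATTTA 5 times, as many as a 30-base window of the 3′ UTR holds in 57 of 20785 mouse genes (0.274%). The whole 3′ UTR had 8 copies in 764 bases in Tnf, 3 in 572 bases in Lta and none in 174 bases in Ltb, in the GENCODE annotation of GRCm38. At least 1 copy was present in 65.0% of genes with an annotated 3′ UTR.

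Cell identity and depth bear on every value that follows. All 11 listed markers of plasmacytoid dendritic cells were detected, with summed levels of 4868 to 20307 FPKM (fragments scaled by transcript length and by library size). Ly6d alone gave 1445 to 7213 FPKM of these sums in control and 3263 to 15316 in the CpG groups. Tlr9 itself lay at only 0.38 to 11.6 FPKM. Siglech, a defining surface lectin, lay at 2144 to 3241 FPKM in control, 1211 to 2522 in CpG-A, 1041 to 2402 in CpG-C and only 104 to 253 in CpG-B. Tcf4, Irf8, Runx2, Spib, Ccr9 and Cox6a2 also lay below every control library with CpG-B. Bst2, Tlr7, Tlr9 and Ly6d overlapped control there. Summed T cell markers (9 genes) lay at 73.8 to 90.8 FPKM in control, 26.8 to 64.8 in CpG-A, 17.6 to 87.7 in CpG-B and 13.8 to 55.2 in CpG-C. Of the CD3 chains that define T cells, Cd3e was listed at 0 in 11 of 12 libraries. Cd3d reached 34.6 FPKM in CpG-A replicate 2, the library with the least Lta of its class (45.55 FPKM). In CpG-B replicate 3, the library with the most Tnf and Lta of its class, Cd3g reached 40.9 FPKM and Cd3d 27.0 FPKM. Summed B cell markers (8 genes) lay at 63.0 to 120.2 FPKM in control, 16.7 to 36.3 in CpG-A, 38.8 to 99.7 in CpG-B and 27.1 to 199.8 in CpG-C. Their highest sum was in CpG-C replicate 1, which also had the most Lta of all libraries. In control, which received no CpG, the sums were 63.0 to 120.2 FPKM and Lta was 1.17 FPKM or less. Summed markers of lymphoid tissue inducer cells (5 genes), another known source of lymphotoxin, lay at 79.0 to 199.7 FPKM in control and at 14.8 to 52.6 in the CpG groups. Most of it was Il7r, though in CpG-A replicate 1 Il23r was 15.8 FPKM beside Il7r at 21.8 FPKM. Conventional dendritic cell markers (6 genes) summed to 60.05 to 150.3 FPKM in control, 33.0 to 126 in CpG-A, 60.8 to 116 in CpG-B and 2.46 to 108 in CpG-C. Monocyte and macrophage markers (7 genes) summed to 5.85 to 30.6 FPKM in control, 0.73 to 8.27 in CpG-A, 8.92 to 28.2 in CpG-B and 0.04 to 13.0 in CpG-C, with their defining genes Csf1r and Adgre1 at 0.26 FPKM or less. Neutrophil markers (6 genes) summed to at most 19.5 FPKM. Summed natural killer cell markers (8 genes) lay at 604 to 807 FPKM in control, 310 to 594 in CpG-A, 747 to 4801 in CpG-B and 273 to 531 in CpG-C. Among them Ncr1, a receptor of natural killer cells, was listed at 0 to 0.06 FPKM in control and at 5.12 to 89.3 FPKM in the CpG groups. Klrk1 also lay above every control library in the CpG groups. Klrd1 went the other way, at 327 to 724 FPKM in control and 20.8 to 242 FPKM in the CpG groups. With CpG-B, Prf1 lay at 18.4 to 86.5 FPKM and Gzma at 318 to 4002 FPKM, above every control library (at most 1.24 and 266 FPKM). Both overlapped control in CpG-A and CpG-C. Klrb1c, Klre1 and Eomes overlapped control in every class. Gzma alone was 4002 FPKM of the highest sum, in CpG-B replicate 2. The part of these markers in the results on Tnf, Lta and Ltb was not tested. In sorted bulk RNA, fewer cells of a type and less RNA per cell cannot be told apart. The estimated depth was 22200000 to 26100000 fragments per library.

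Lymphotoxin alpha RNA was near zero in every control library and tumour necrosis factor RNA in 2 of 3, and with each CpG class both stood above at least 85.7% of known genes, while lymphotoxin beta was already high in control. Lta and Tnf rose in every class and Ltb passed the test in none. On a per-length scale Ltb was the highest of the 3 genes in 3 of 3 control libraries, and Lta was the highest in 6 of 9 CpG libraries.

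Lta was listed at 0.24, 0.49 and 1.17 FPKM in control replicates 1 to 3. It reached 467, 45.55 and 334 FPKM with CpG-A. With CpG-B it reached 46.7, 188 and 756 FPKM, and with CpG-C 1173, 236 and 848 FPKM. Each of the 9 CpG libraries lay above every control library, and within a class the libraries differed from each other by up to 16.2 times (CpG-B). In control Lta stood higher than 48.2% to 53.4% of known genes, and in the CpG libraries higher than 89.6% to 99.4% of them. Group means were 0.633 ± 0.481 FPKM in control, 282 ± 215 in CpG-A, 330.3 ± 375 in CpG-B and 752 ± 476 in CpG-C (SD, n = 3 each), so that the means of the classes were 445, 521 and 1187 times that of control. The control level rests on roughly 7.87, 17.5 and 45.3 fragments at the estimated depths, and these ratios are correspondingly loose.

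Tnf was listed at 26.8, 0.21 and 0.98 FPKM in control, at 209.6, 86.3 and 51.2 FPKM with CpG-A, at 28.1, 63.6 and 231 FPKM with CpG-B, and at 188.5, 301 and 499 FPKM with CpG-C. All 9 CpG libraries lay above the highest control library, though CpG-B replicate 1 only just. Control replicate 1 stood apart from the other controls for Tnf, which lay at 0.21 and 0.98 FPKM, but not for Lta, where it was the lowest of the 3. Group means were 9.33 ± 15.1 FPKM in control, 116 ± 83.2 in CpG-A, 107 ± 108 in CpG-B and 329.5 ± 157 in CpG-C (SD, n = 3 each). The means of the classes were 12.4, 11.5 and 35.3 times that of control.

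Ltb was listed at 230.1, 41.5 and 105 FPKM in control, at 412, 190.35 and 329.97 FPKM with CpG-A, at 92.0, 121 and 229 FPKM with CpG-B, and at 394, 201 and 224 FPKM with CpG-C. Every class overlapped control, and only 3 of 9 CpG libraries exceeded the highest control library. Group means were 125 ± 96.0 FPKM in control, 311 ± 112 in CpG-A, 147 ± 72.1 in CpG-B and 273 ± 106 in CpG-C (SD, n = 3 each), which is 2.48, 1.17 and 2.18 times control for the 3 classes. Ltb stood above 88.2% of known genes in its lowest library, control replicate 2.

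**Figure D1:**
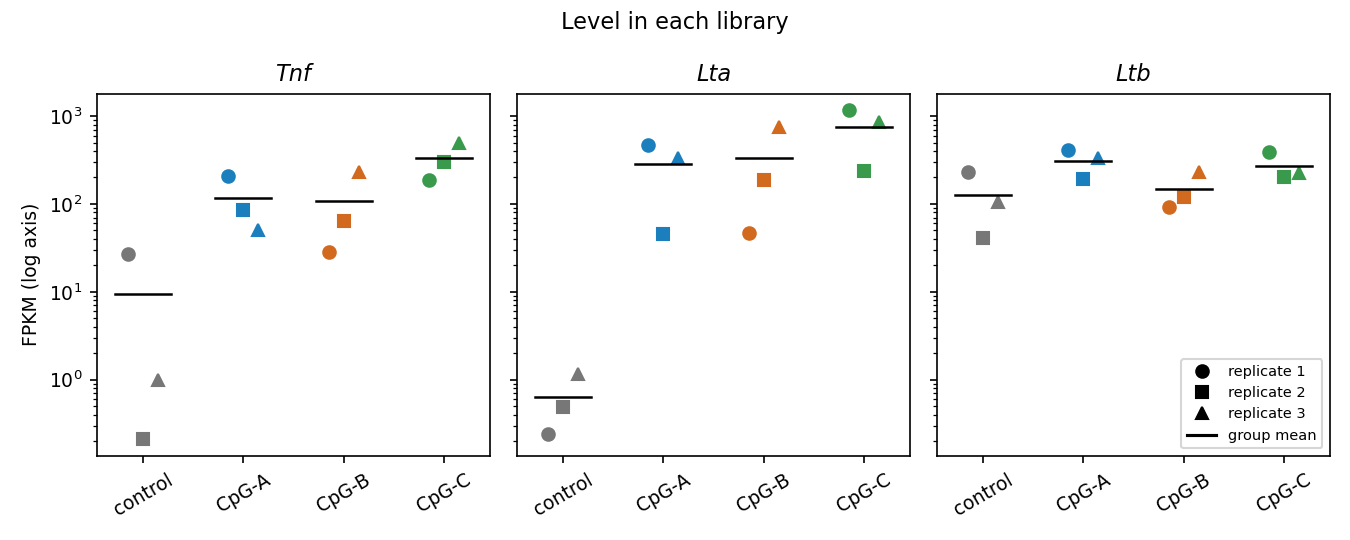
FPKM (log axis) of Tnf, Lta and Ltb in each of the 12 libraries by group, with symbols for the replicate number and a line at the group mean. For Lta the controls sit between 0.24 and 1.17 FPKM and the CpG libraries between 45.55 and 1173 FPKM, whereas the Ltb groups overlap.

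The question of the design is how each class differs from untreated cells. In limma's moderated test on log2(FPKM + 1), adjusted by Benjamini-Hochberg over the 11641 genes, Lta was higher with CpG-A by 6.93 (SE 0.96, adjusted p = 0.000974), with CpG-B by 6.90 (SE 0.96, adjusted p = 0.000506) and with CpG-C by 8.60 (SE 0.96, adjusted p = 0.00013). It ranked 5th, 28th and 2nd from the highest difference of all tested genes. The log2 difference understates the change of a gene this low in control, because 1 was added. Lta kept its call in all 23 alternative fits of each comparison.

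Tnf was higher with CpG-A by 4.60 (SE 1.01, adjusted p = 0.0321), with CpG-B by 4.23 (SE 1.01, adjusted p = 0.0221) and with CpG-C by 6.24 (SE 1.01, adjusted p = 0.00325) in the same limma fit. The CpG-A call was lost, with adjusted p of 0.153, 0.0749, 0.131 and 0.109, without CpG-A replicate 1 or 2 or without control replicate 2 or 3. The CpG-B call was lost, with adjusted p of 0.0608, 0.103, 0.101 and 0.0852, without CpG-B replicate 2 or 3 or without control replicate 2 or 3. The CpG-C call held when any 1 library was left out, and all 3 calls were lost when genes of low level were tested too (adjusted p = 0.222, 0.14 and 0.0653). Without control replicate 1 the differences were larger, at 5.99 for CpG-A and 5.61 for CpG-B.

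Ltb differed from control by 1.55 with CpG-A (95% interval 0.35 to 2.76, adjusted p = 0.248), by 0.44 with CpG-B (-0.76 to 1.65, adjusted p = 0.734) and by 1.37 with CpG-C (0.16 to 2.58, adjusted p = 0.316) in the limma fit. None passed the threshold, and the intervals allow rises of up to 2.76 on the log2 scale. Against this, 1.05% of tested genes were called higher with CpG-A, 3.26% with CpG-B, 1.34% with CpG-C and 0.765% with all 3 classes, and 2 of the 3 genes of the cluster, Tnf and Lta, were among the last. Samples of each class lay wholly above control for 5.78%, 10.1% and 6.64% of tested genes, and for 2.22% in all 3 classes at once. The 3 comparisons share the same control libraries.

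**Figure D2:**
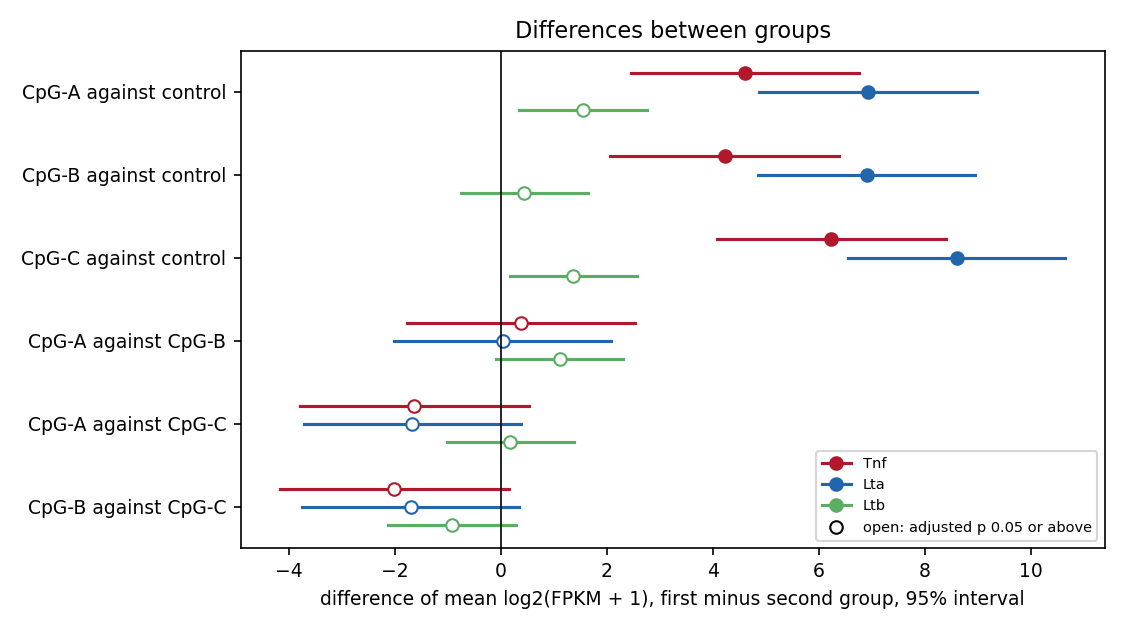
Difference of group means of log2(FPKM + 1) with its 95% interval for Tnf, Lta and Ltb in the 6 comparisons, where filled points have an adjusted p below 0.05. The 6 filled points are Tnf and Lta against control, from 4.23 to 8.60, and no difference between classes is filled.

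Between classes, none of the 3 genes passed the test. Mean Tnf was lowest in control and higher in CpG-B, CpG-A and CpG-C in that order, Lta followed the order control, CpG-A, CpG-B and CpG-C, and Ltb the order control, CpG-B, CpG-C and CpG-A. Beyond the step from control, no neighbours in these orders differed beyond the spread of their samples, and for Ltb neither did the first step. Tnf differed by 0.38 between CpG-A and CpG-B (95% interval -1.78 to 2.54, adjusted p = 0.929 in the limma fit), where 2.43% of tested genes were called. CpG-C held the highest mean of Tnf and of Lta: Tnf lay below it by -1.63 in CpG-A (-3.79 to 0.52, adjusted p = 1) and by -2.01 in CpG-B (-4.17 to 0.15, adjusted p = 0.472). For Lta the differences were 0.03 for CpG-A minus CpG-B (-2.02 to 2.08), -1.67 for CpG-A minus CpG-C (-3.72 to 0.38) and -1.70 for CpG-B minus CpG-C (-3.75 to 0.35), with adjusted p of 1, 1 and 0.547. The sign of the CpG-A to CpG-B difference of Lta flipped under both other scalings, to -0.11. For Ltb they were 1.11 (-0.10 to 2.31), 0.18 (-1.02 to 1.39) and -0.93 (-2.13 to 0.28), with adjusted p of 0.409, 1 and 0.589. Of all tested genes 0% were called between CpG-A and CpG-C by limma, with 467 at an unadjusted p below 0.05, and 1.35% between CpG-B and CpG-C. The intervals span differences of over 2 on the log2 scale for Tnf and Lta, so these samples do not show that the classes act alike on the cluster.

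Because lymphotoxin beta reaches the surface only with lymphotoxin alpha, the balance of the 2 messages was set out per library. The difference of log2(Lta FPKM + 1) and log2(Ltb FPKM + 1) was -7.54, -4.83 and -5.61 in control, where Ltb exceeded Lta in every library. It was 0.18, -2.04 and 0.02 with CpG-A, -0.96, 0.63 and 1.72 with CpG-B, and 1.57, 0.23 and 1.92 with CpG-C. No CpG library overlapped the controls, and Lta exceeded Ltb in 7 of 9 CpG libraries, the exceptions being CpG-A replicate 2 and CpG-B replicate 1. As a share of the summed FPKM of the 3 genes, Ltb made up 89.5%, 98.3% and 98.0% in control and 14.2% to 59.1% in the CpG libraries. Tnf made up 7.16% to 40.8% in the CpG libraries and was the highest of the 3 only in CpG-C replicate 2.

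**Figure D3:**
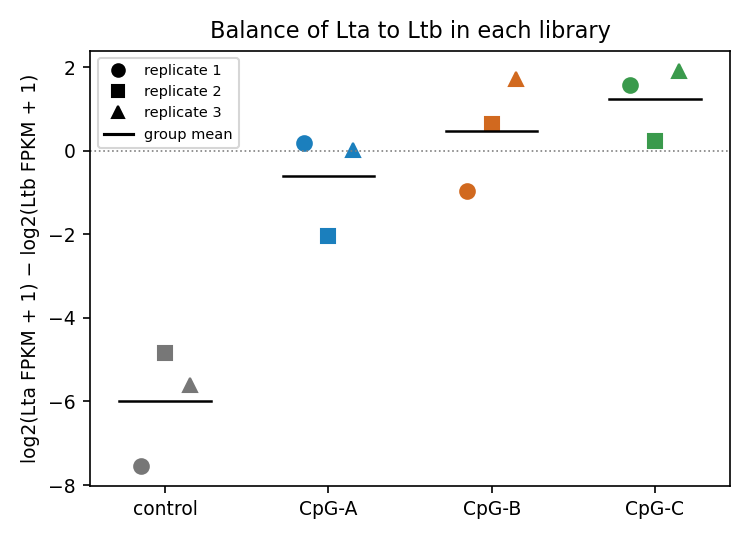
Difference of log2(FPKM + 1) between Lta and Ltb in each library by group, with a line at the group mean; above 0 Lta is the more abundant. Controls lie between -7.54 and -4.83 and CpG libraries between -2.04 and 1.92.

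Across the 9 CpG libraries, Pearson's r of log2(FPKM + 1) was 0.70 between Tnf and Lta, 0.50 between Tnf and Ltb and 0.70 between Lta and Ltb, as a description. Over all 12 libraries, where the low controls are included, the known genes most like Tnf included Daxx, a histone chaperone (r = 0.93), Sowahc (0.92), H2-Q8, a class I histocompatibility gene whose reads may be shared with near copies (0.90), and Oasl2 (0.90). Lta was 12th of 9609 known genes in likeness to Tnf, with r = 0.86. Those most like Lta were Ppp1r11, an inhibitor of protein phosphatase 1 (0.96), Oas3 (0.95), Cd40, the co-stimulatory receptor (0.95), Il12rb1, a chain of the interleukin 12 receptor (0.94), and Ube2l6, the conjugating enzyme for ISG15 (0.94). Cd40 lay at 0.11 to 0.32 FPKM in control and at 70.1 to 349 FPKM in the CpG libraries, a pattern of near absence and abundance like that of Lta. Those most like Ltb were Creb3 (0.93), Syngr2 (0.91), Ly6e (0.89), Copb2 of the COPI coat (0.86) and the cell cycle inhibitor Cdkn1a (0.85). The 3 control libraries, which lay below every CpG library for Tnf and Lta but not for Ltb, weigh in each of these values.

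The receptors of the 3 ligands lay between 0 and 32.0 FPKM over the 12 libraries, and none of the 4 passed the test in any comparison. Tnfrsf1a, which encodes TNFR1, had group means of 18.6 ± 11.6 FPKM in control, 14.7 ± 9.32 in CpG-A, 4.98 ± 5.10 in CpG-B and 7.03 ± 2.64 in CpG-C (SD, n = 3 each). Its CpG-B and CpG-C libraries all lay below control, with log2 differences of -1.91 (adjusted p = 0.234) and -1.19 (adjusted p = 0.595) in the limma fit. Tnfrsf1b, which encodes TNFR2, lay at 2 to 9.14 FPKM over the 12 libraries. Ltbr, the lymphotoxin beta receptor, lay at 0 to 10.1 FPKM, and Tnfrsf14, the herpesvirus entry mediator that can also bind lymphotoxin alpha, at 4.52 to 22.9 FPKM.

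Of 103 genes in 8 lists around the 3 cytokines, 78 could be tested. Called were 1 (1.28%) with CpG-A, 10 (12.8%) with CpG-B and 4 (5.13%) with CpG-C, where 1.47%, 5.75% and 1.86% of all tested genes were called in either direction. The median log2 difference of the 78 genes was 0.12, 0.34 and 0.46, beside -0.27, -0.25 and -0.22 for all tested genes.

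None of the 3 tested genes of Tnf shedding was called. Adam17, the sheddase itself, averaged 19.9 ± 7.27 FPKM in control (SD, n = 3), and its log2 differences were 0.02, 0.02 and -0.44 for CpG-A, CpG-B and CpG-C. Of the 11 regulators of Tnf mRNA, 2 fell, both with CpG-B: Zfp36l1 by 3.18 (adjusted p = 0.0316) and Zfp36l2 by 3.15 (adjusted p = 0.0109 in the limma fit), relatives of tristetraprolin that bind AU-rich elements such as the one printed above, where 2.48% of all tested genes were called lower with CpG-B. Zfp36l2 lay at 109, 149 and 156 FPKM in control and at 15.3, 20.3 and 9.63 FPKM with CpG-B, without overlap, and kept its call in all 12 fits that left out a library. Zfp36l1 was listed at 0.47, 1.73 and 10.5 FPKM with CpG-B and at 23.1, 24.1 and 55.9 FPKM in control, and kept its call in 8 of those 12 fits. Zfp36 itself differed by 0.41, 0.75 and 0.05 from control and passed in no class.

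Among 25 tested genes of TNF receptor signalling, Traf1, an adaptor of TNFR2, rose with CpG-B by 4.21 (adjusted p = 0.00301) and with CpG-C by 3.50 (adjusted p = 0.022), from 2.15, 0.09 and 5.99 FPKM in control to 68.5, 32.7 and 63.8 FPKM with CpG-B. Its CpG-C call was lost in 3 of 12 fits with a library left out, without CpG-C replicate 1 or 2 or control replicate 2 (adjusted p up to 0.108), and in 5 of 11 other settings. Cflar, which encodes the caspase 8 inhibitor c-FLIP, rose with CpG-B by 3.25 (adjusted p = 0.00501), from 3.72 to 24.7 FPKM in control to 104 to 205 FPKM. Among the 10 NF-kB genes, Nfkbia, the inhibitor that NF-kB itself induces, rose with CpG-B by 3.68 (adjusted p = 0.00457), to 604 to 844 FPKM against 17.7 to 112 FPKM in control. Nfkbiz, a nuclear cofactor of NF-kB, rose with CpG-B by 3.05 (adjusted p = 0.00355) and with CpG-C by 2.75 (adjusted p = 0.0158 in the limma fit), the latter lost in 3 of 12 fits, without CpG-C replicate 1 or 3 or control replicate 2 (adjusted p up to 0.0983). Relb, the subunit of the pathway downstream of the lymphotoxin beta receptor, was the single called list gene with CpG-A, at 2.85 (adjusted p = 0.0455), and kept that call in 1 of 12 fits with a library left out. The 10 NF-kB genes had medians of 1.15, 1.30 and 1.56 in the 3 classes.

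Among the 16 other transcription factors linked to the Tnf promoter, Irf8 fell with CpG-B by 2.77 (adjusted p = 0.00646), from 381 to 711 FPKM to 29.1 to 195.6 FPKM. Irf8 is also a marker of plasmacytoid dendritic cells. Atf3 was higher with CpG-C by 5.04 (adjusted p = 0.0438 in the limma fit), and this call held in 2 of 12 fits with a library left out. Of the 14 target genes of TNF and lymphotoxin only 4 were tested, and 5, Cxcl13, Ccl21a, Cxcl1, Cxcl2 and Ccl20, were not analysed here. Icam1, the adhesion molecule, rose with CpG-C by 2.10 (adjusted p = 0.0202), from 16.8 to 23.0 FPKM in control to 77.3 to 110 FPKM, and kept the call in 8 of 12 fits. Tnfaip6, a hyaluronan-binding protein, was called higher with CpG-B (adjusted p = 0.0253), at 7.25, 10.1 and 7.60 FPKM where all 3 controls were listed at 0, with the call kept in 6 of 12 fits.

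Among 5 tested ligands of the wider TNF superfamily, 2 were called higher with CpG-B. Tnfsf9, which encodes the 4-1BB ligand, lay at 116, 53.8 and 53.1 FPKM with CpG-B and at most 0.04 FPKM in control (6.10, adjusted p = 0.00656). With CpG-A it lay at 61.05, 0.11 and 6.61 FPKM, also above every control but not called (2.97, adjusted p = 0.311), and the CpG-A to CpG-B difference was not called either (-3.12, adjusted p = 0.24 in the limma fit). Tnfsf10, which encodes the death ligand TRAIL, differed by 3.16 with CpG-C (adjusted p = 0.0905 in the limma fit). It lay above every control with CpG-C and also with CpG-B (6.67 to 8.14 FPKM against at most 1.59 FPKM), without a call in either. Tnfsf4, the OX40 ligand, lay at 7.48, 22.3 and 9.14 FPKM with CpG-B and at most 0.03 FPKM in the other 9 libraries (3.64, adjusted p = 0.00138 in the limma fit). Between classes, 5 of the 78 tested list genes (6.41%) were called for CpG-A against CpG-B, where 2.43% of all tested genes were called. For CpG-B against CpG-C 4 of 78 (5.13%) were called, where 1.35% of all tested genes were. These list genes are named here after their values were seen. Tnfsf4, Tnfaip6 and Fasl were lower and Zfp36l1 and Irf8 higher in CpG-A than in CpG-B, and Tnfsf4, Tnfsf9 and Fasl were higher and Irf8 lower in CpG-B than in CpG-C. With 1 library left out, Tnfaip6 kept its call between CpG-A and CpG-B in 2 of 12 fits, Zfp36l1 in 8, Fasl in 9 and Irf8 in 11. Between CpG-B and CpG-C, Tnfsf9 kept its call in 2 of 12 fits (adjusted p up to 0.238), Irf8 in 8 and Fasl in 9. Tnfsf4 kept both calls in all 9 fits in which it was tested. Those fits kept every CpG-B library, because no other library reached 1 FPKM of Tnfsf4. They cannot show whether the calls rest on a single CpG-B library. With only the 6 libraries compared, the Tnfsf4 call between CpG-B and CpG-C was lost (adjusted p = 0.0619 in limma). Fasl, the Fas ligand, which natural killer cells also make, lay at 8.18 to 17.8 FPKM with CpG-B and at 0.44 FPKM or less with CpG-A. In CpG-B the summed natural killer cell markers and the level of Siglech, given above, differed in the same libraries, and their part in these calls was not tested.

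**Figure D4:**
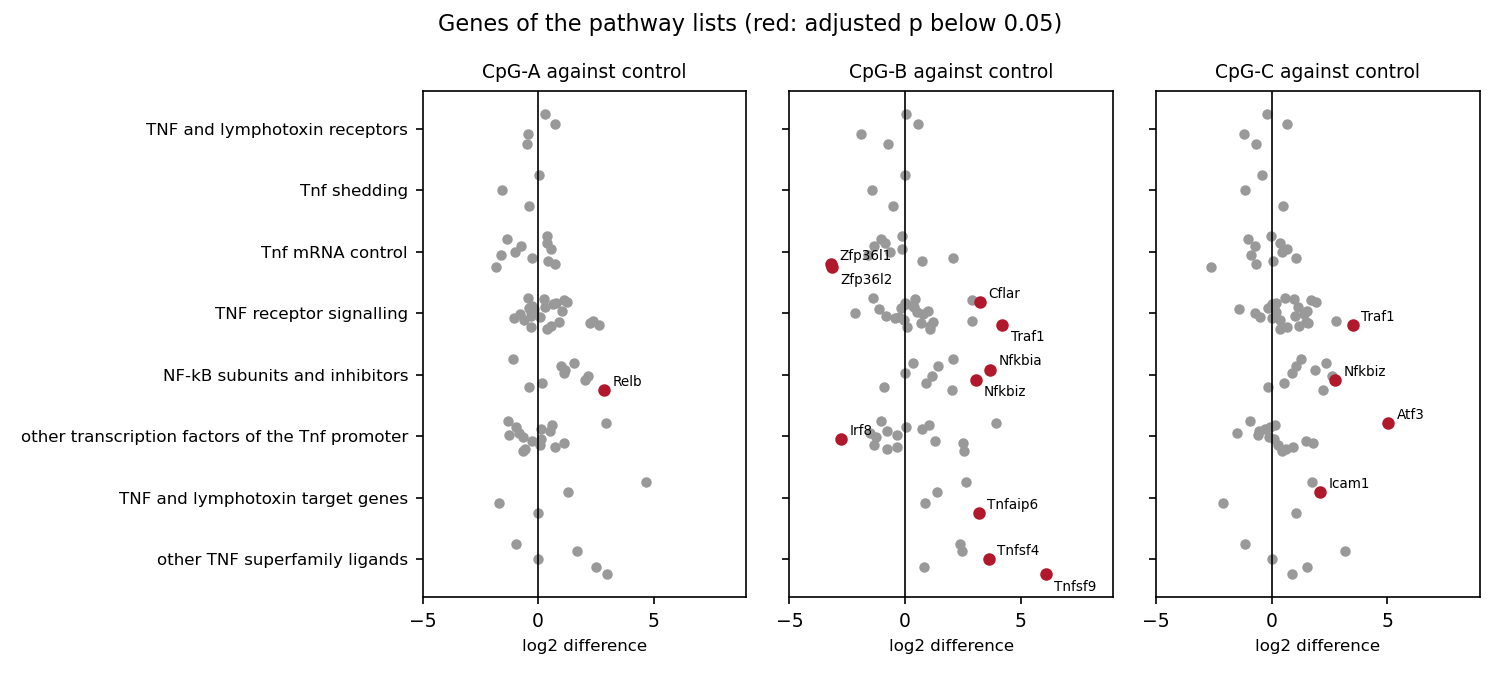
Log2 difference from control of each tested gene of the 8 lists around the 3 cytokines, in CpG-A, CpG-B and CpG-C; red points with names have an adjusted p below 0.05. Red points number 1 with CpG-A, 10 with CpG-B and 4 with CpG-C, and no receptor is among them.

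Of 15 genes within 100 kb of the cluster, 14 were tested, and H2-D1 alone was called, with CpG-B (1.25, adjusted p = 0.0111) and with CpG-C (1.17, adjusted p = 0.0369 in the limma fit). That is 0, 1 and 1 of 14 genes in the 3 classes, where 1.47%, 5.75% and 1.86% of all tested genes were called. The H2-D1 call held in 10 of 12 fits with a library left out for CpG-B and in 6 of 12 for CpG-C, and both were lost without the mean-variance trend (adjusted p = 0.162 and 0.322). H2-D1 is a class I histocompatibility gene that overlaps H2-L in the table, and since the mice carry another haplotype than the reference its reads are uncertain. Median log2 differences of the 14 neighbours were 0.90, 0.24 and 0.32. Nfkbil1, the nearest gene beyond Lta, stayed at 6.94 FPKM or less in every library. Ly6g5b had differences of 3.65, 1.61 and 4.24 and passed in no class, with adjusted p of 0.161, 0.504 and 0.0848. Lst1 overlaps the Ltb gene by 1418 bases on the opposite strand, while their exons share 0 bases in the GENCODE annotation. Lst1 lay at 0.15 to 86.7 FPKM over the 12 libraries.

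**Figure D5:**
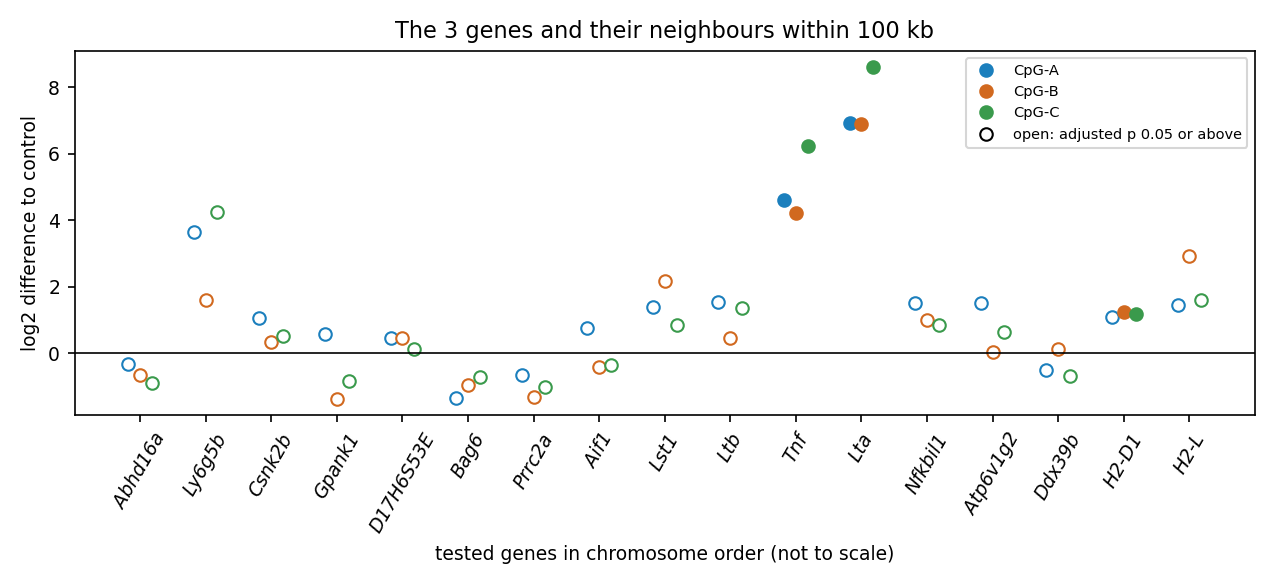
Log2 difference from control of Tnf, Lta, Ltb and the 14 tested neighbours within 100 kb, in chromosome order and not to scale, with filled points at an adjusted p below 0.05. Filled points are Tnf and Lta in all 3 classes and H2-D1 with CpG-B and CpG-C.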

How the data were processed

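RNA from sorted cells was sequenced in 12 libraries. The authors deposited 1 gene table with FPKM values, and per the submitters' processing notes RSEM 1.2.8, Bowtie2 2.2.5, HISAT, StringTie and GATK were used with mm10, in roles not given. Log2 ratios between groups, each with a p-value and a q-value, are further columns per the file headers and entered no test. 1 broken line was left out, which left 21573 genes. The 11641 genes that reached 1 FPKM in 3 libraries or more were changed to log2(FPKM + 1) and fitted together in limma 3.58.1 (R 4.3.3), with 1 mean per group and trended empirical Bayes moderation (8 residual and 6.81 prior degrees of freedom). P-values are two-sided, adjusted by Benjamini-Hochberg over all tested genes, and called below 0.05. The code was tested on simulated data. An exact permutation test of 3 against 3 cannot go below 0.1 and was not used.

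Depth was estimated from the steps of low FPKM values: 56.8% to 65.0% lay within 0.1 fragments of a whole number. With transcript lengths shuffled between genes, 26.8% to 31.2% did, in a coarser search. Multiples of a depth also give whole numbers, so the search was capped, and the depths rest on that cap. FPKM carry no counts, so no counting interval is given. A replicate number was to be used as a block if all pairs of libraries with the same number correlated above 0.1. Since 11 of 18 did, the block was kept as an alternative. The genes, lists and tests were chosen with earlier results of these data known. Named are the 3 genes, their 5 most correlated known genes (1 of them is not reported here), the tested neighbours, the 4 receptors and up to 3 called genes per list and class. Promoters are from RefSeq and 3′ UTRs from GENCODE M21, and motifs were sought on both strands. Alternatives were other added values, filters, scalings, weights, a replicate block, the 6 libraries compared alone, and each library left out. Leaving out the 4 libraries numbered 1 was added after seeing the data.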

Additional observations from a re-analysis of the deposited data

How the results depend on the processing

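Of 414 alternative values of Tnf, Lta and Ltb, 383 kept direction and side of the threshold. Lta against control kept its call under all alternatives and Ltb never gained one. Calls of Tnf were lost with no filter (CpG-A 4.60, CpG-B 4.23, CpG-C 6.24, adjusted p = 0.222, 0.14 and 0.0653), without the mean-variance trend (4.60 and 4.23, adjusted p = 0.08 and 0.0516 for CpG-A and CpG-B) and with only the 6 libraries compared (4.60 and 4.23, adjusted p = 0.107 and 0.0668). For CpG-A the call was also lost on adding 0.1 (5.55, adjusted p = 0.057) or 0.01 (5.76, adjusted p = 0.0754). With no filter more genes were tested, with 6 libraries fewer samples, and otherwise the cause was not tested. With 1 library left out, Tnf ranged from 3.73 to 5.99 for CpG-A and from 3.35 to 5.61 for CpG-B against control, and Ltb from -0.18 to 1.04 for CpG-B against control.

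Directions between classes that reversed were none of them called. For CpG-A minus CpG-B, Lta became -0.11 under median-of-ratios scaling and -0.11 under upper quartile scaling, -0.51 with library weights and -1.60 without the 4 libraries numbered 1, and Tnf became -0.55 and -0.86 under the last 2. With 1 library left out, Lta ranged from -0.97 to 1.06 and Tnf from -0.31 to 1.19 there, and Ltb for CpG-A minus CpG-C from -0.057 to 0.50. The mean Lta to Ltb balance in control moved from -5.99 to -7.56 on adding 0.01. The median difference of all tested genes to control, -0.27, -0.25 and -0.22, became -0.12, -0.00174 and -0.08 under median-of-ratios scaling.

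Counts of all called genes were 171, 669 and 217 for CpG-A, CpG-B and CpG-C against control, 283 for CpG-A against CpG-B, 0 for CpG-A against CpG-C and 157 for CpG-B against CpG-C. With no filter they were 102, 440 and 118 against control and 157 and 92 between classes. With the 6 libraries alone, CpG-A against control gave 95, CpG-C against control 144, and the class pairs 176 and 73. Library weights gave 1063 for CpG-B, 406 for CpG-C, and 509 and 587 for the class pairs. CpG-C gave 143 without the trend, adding 0.01 gave 150 and 90 for the class pairs, and CpG-A gave 110 without the libraries numbered 1. With 1 library left out the counts ranged from 343 to 764 (CpG-B), 108 to 239 (CpG-C), 62 to 356 (CpG-A against CpG-B), 0 to 2 (CpG-A against CpG-C) and 37 to 166 (CpG-B against CpG-C).

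List genes called, 1, 10 and 4 against control and 5 and 4 for the class pairs, changed as follows. The 1 with CpG-A became 0 on adding 0.1 or 0.01, with no filter, without the trend, with 6 libraries and without the libraries numbered 1. The 4 with CpG-C became 2 with no filter, without the trend and with 6 libraries, 9 with weights and 1 without the libraries numbered 1. The 5 became 3 on adding 0.1 or 0.01, without the trend and with 6 libraries, 2 without the libraries numbered 1 and 1 with no filter. The 4 of CpG-B against CpG-C became 2 on adding 0.01 and without the trend, 1 with no filter, with 6 libraries and without the libraries numbered 1, and 7 with weights. With 1 library left out these ranged from 0 to 1, 1 to 4, 0 to 6 and 0 to 4 in the same order.

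With the replicate number as a block, 285, 886 and 310 genes were called against control and 434, 0 and 276 between classes, and 7 list genes between CpG-B and CpG-C. The block changed no call of Tnf, Lta or Ltb: Tnf had adjusted p of 0.0394, 0.0264 and 0.00599 against control. Correlations of deviations were 0.0607 to 0.17 between libraries with the same number and -0.131 to 0.029 between others, and all 12 libraries correlated best with their own number, which is a hint from the data and not the design.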

Other observations

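In the authors' deposited table the log2 ratio for Ltb was 0.23 for CpG-B over control, with a q-value of 1.7e-31. For Tnf it was -0.03 for CpG-B over CpG-A, with a q-value of 0.02. The authors' deposited table gives a q-value below 0.05 to 14737 of 16458 genes for CpG-A over control, 15857 of 17441 for CpG-B and 14839 of 16537 for CpG-C. The test behind the q-values is not stated in the file headers. The single-library values set out above for Ltb overlap between CpG-B and control.

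Sod2, the mitochondrial superoxide dismutase and a textbook NF-kB target, averaged 38.2 ± 4.23 FPKM in control, 11.2 ± 2.04 with CpG-A, 72.0 ± 24.2 with CpG-B and 12.5 ± 9.93 with CpG-C (SD, n = 3 each). Its libraries lay wholly below control with CpG-A and CpG-C and wholly above it with CpG-B, while no difference from control passed the limma test (adjusted p = 0.355, 0.598 and 0.225). Between classes Sod2 differed by -2.55 for CpG-A minus CpG-B (adjusted p = 0.0987) and by 2.94 for CpG-B minus CpG-C (adjusted p = 0.0741), which also missed the threshold in the limma fit. Csf2, which encodes the growth factor GM-CSF, had 68.2 ± 87.0 FPKM with CpG-A against a control level of 0.423 ± 0.649 (SD, n = 3 each; log2 difference 4.68, adjusted p = 0.0899 in the limma fit). Both genes were picked out after their values were seen.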
